A study of Homo sapiens with 24 samples.

Results

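The genes described here carry glucose into the cell, break it down to lactate and store it as glycogen. They are 32 genes taken by name: the glucose transporters SLC2A1 and SLC2A3, enzymes of each glycolytic step with their main isoforms, the enzymes that set fructose 2,6-bisphosphate, the lactate enzymes and exporters, and the enzymes of glycogen synthesis and breakdown. Every probe that carried one of these symbols was taken, whatever its values, which gave 51 of the 47231 probes of an Illumina expression BeadChip and covered 29 of the 18811 genes named on it. SLC2A3, SLC16A1 and SLC16A3 had no named probe and were not analysed here. The arrays measured RNA from 2 human melanoma cell lines, WM35 and Mel-624, in 8 groups of 3 arrays each, with the replicate letters A, B and C. The WM35 cells were held for 24 h at 21% oxygen (normoxia) or at 1% oxygen (hypoxia), either without added factor or with recombinant human insulin-like growth factor 1 (rhIGF1, 100 ng/mL) over the last 6 h. Mel-624 cells carried either siIGF1R, a SMARTpool that silences the IGF1 receptor, or siControl, a non-targeting pool, and were kept for 3 days in normoxia or hypoxia. The labels give the oxygen percentages for WM35 only. Both lines were grown in RPMI with 5% fetal bovine serum, and the labels do not say whether serum stayed on during treatment. The labels do not say whether A, B and C were separate cultures, and p-values measure only the spread between these arrays. WM35 and Mel-624 were hybridised to different BeadChips, and line and chip cannot be told apart.

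Glucose enters through transporters of the SLC2A family and is trapped by hexokinase. Phosphofructokinase makes the committed step and is switched on by fructose 2,6-bisphosphate, which the PFKFB enzymes make and remove. The lower part of the pathway yields ATP and pyruvate, and lactate dehydrogenase regenerates NAD+ so that the flow can go on without oxygen. Glycogen is built from glucose 1-phosphate by UGP2, GYS1 and GBE1 and opened again by the phosphorylases. Under low oxygen, hypoxia-inducible factors are known to bind the letters ACGTG or GCGTG near many genes of glycolysis, and signalling from insulin and IGF1 receptors is known to promote glucose use in many tissues.

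Between 13948 and 15987 probes were detected per array. Levels are normalized log2 signals, and a level compares samples for 1 probe, never 1 probe with another. Probes with a detection p below 0.01 on 3 or more of a line's 12 arrays were kept, which left 40 member probes of 28 genes in WM35 and 42 of 29 genes in Mel-624. PFKFB2 was not kept in WM35. Changes are log2 differences with the standard error after the ± sign, a rise or a fall was called in limma where the p, adjusted after Benjamini and Hochberg over all kept probes, was below 0.05, and a gene with several probes is read by its brightest one unless a probe number is given. Members kept only through the groups where they are bright had to differ between groups, so the counts describe the kept probes. IGF1R itself read 6.98, 7.06 and 7.07 in normoxic siControl cells and 6.03, 6.28 and 6.39 in normoxic siIGF1R cells, a change of -0.81 ± 0.18 (adjusted p = 0.015). In hypoxia it read 8.46, 8.65 and 8.23 against 6.19, 7.02 and 6.59, a change of -1.84 ± 0.18 (adjusted p = 5.2e-05). Every siIGF1R array lay below the siControl arrays of its oxygen level. IGF1R itself rose with hypoxia in siControl cells, by 1.41 ± 0.18 (adjusted p = 4.8e-05). In siIGF1R cells its hypoxia change was 0.37 ± 0.18 (adjusted p = 0.12). Hypoxic siIGF1R array B, at 7.02, reached the normoxic siControl range. Of the melanocyte markers, MLANA, PMEL, TYR and TYRP1 were detected on 12 of 12 Mel-624 arrays and on 0 of 12 WM35 arrays, whereas SOX10 was detected on 12 of 12 in both lines. MITF, the melanocyte lineage factor, had 1 probe detected on 12 Mel-624 and 8 WM35 arrays, 1 on 7 and 0, and 1 on 0 of either line. The 4 pigment markers were thus not detected in the line labelled WM35. The S100B probe was detected on 0 arrays of either line. Markers of epithelium, leukocytes and endothelium were detected on 0 arrays of either line. Of the fibroblast genes, COL1A1 was detected on 0 arrays of either line. For DCN and LUM, 1 probe each was detected on 12 of 12 Mel-624 arrays, and on 0 and 3 of 12 WM35 arrays. The other DCN probes were detected on 0 and 2 Mel-624 arrays and the other LUM probe on 0.

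The regions just before the starts of the genes that moved most are shown first, because hypoxia-inducible factors are known to act through the short letters named above. Promoter windows reach from 250 bases before to 50 bases after each start, in RefSeq sequence of build GRCh38.p14, and 29 of the 32 genes had at least 1 window. SLC16A3, which was not analysed, was among these with 5 windows, and PFKFB2 was not. HK1 and PFKM had 7 windows each, some of them overlapping, so windows do not stand for separate genes. ACGTG or GCGTG on either strand was present in 38 of 57 member windows (66.7%) against 48.4% of all 35116 windows. ACGTG alone was present in 22 member windows (38.6%) against 21.4% of all. CACGTG matches on both strands at once, so its 2 matches overlap. A match is a description of the letters and no evidence of binding. Shown are the 4 genes with the highest mean hypoxia change over the 4 hypoxia comparisons, ALDOC, ENO2, GBE1 and HK2, and the second enolase gene ENO1, whose level did not pass the test in any of them. Of the 2 HK2 windows the one with more matches is shown. Capitals mark each match. The ALDOC window is chr17:28576846-28577145 on the minus strand, ENO2 is chr12:6914330-6914629 on the plus strand, GBE1 is chr3:81761596-81761895 on the minus strand, HK2 is chr2:74834920-74835219 on the plus strand and ENO1 is chr1:8878637-8878936 on the minus strand.
ALDOC: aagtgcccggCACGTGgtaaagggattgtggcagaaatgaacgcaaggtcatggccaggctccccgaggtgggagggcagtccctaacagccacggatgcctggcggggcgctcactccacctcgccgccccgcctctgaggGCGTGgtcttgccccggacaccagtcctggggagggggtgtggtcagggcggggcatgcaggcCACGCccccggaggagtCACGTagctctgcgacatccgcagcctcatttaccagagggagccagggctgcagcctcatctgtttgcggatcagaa
ENO2: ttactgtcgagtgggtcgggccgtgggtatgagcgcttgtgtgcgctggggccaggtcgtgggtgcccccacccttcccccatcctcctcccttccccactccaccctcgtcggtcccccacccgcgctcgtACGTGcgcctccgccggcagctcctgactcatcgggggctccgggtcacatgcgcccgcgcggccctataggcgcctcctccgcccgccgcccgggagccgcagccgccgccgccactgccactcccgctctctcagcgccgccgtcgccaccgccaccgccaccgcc
GBE1: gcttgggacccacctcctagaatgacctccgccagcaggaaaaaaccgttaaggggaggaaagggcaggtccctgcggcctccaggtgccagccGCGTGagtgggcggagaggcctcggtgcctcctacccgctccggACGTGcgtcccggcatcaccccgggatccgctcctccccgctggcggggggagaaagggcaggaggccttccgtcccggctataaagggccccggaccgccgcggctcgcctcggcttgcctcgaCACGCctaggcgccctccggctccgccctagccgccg
HK2: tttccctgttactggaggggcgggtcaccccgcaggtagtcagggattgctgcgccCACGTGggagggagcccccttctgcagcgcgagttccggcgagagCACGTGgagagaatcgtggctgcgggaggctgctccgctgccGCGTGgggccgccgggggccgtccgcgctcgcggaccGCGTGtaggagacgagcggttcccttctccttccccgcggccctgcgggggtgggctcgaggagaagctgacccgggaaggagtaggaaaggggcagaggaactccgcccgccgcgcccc
ENO1: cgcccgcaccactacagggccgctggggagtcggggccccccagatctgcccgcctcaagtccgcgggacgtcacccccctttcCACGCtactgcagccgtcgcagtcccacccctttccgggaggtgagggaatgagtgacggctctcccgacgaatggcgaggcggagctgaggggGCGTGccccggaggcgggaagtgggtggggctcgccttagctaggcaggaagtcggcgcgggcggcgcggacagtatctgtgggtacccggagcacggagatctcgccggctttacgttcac
The windows of ALDOC and HK2 held 5 and 6 matches, those of GBE1, ENO1 and ENO2 held 3, 2 and 1. ENO1 had GCGTG but no ACGTG. SLC2A1, HK1, PFKL, PFKFB4, PKM, LDHB, GYS1 and PYGB also had no ACGTG in any window, and PGAM1 and PYGL had neither motif. The other 18 of the 29 genes with a window had ACGTG in at least 1 window, BPGM and PGM2 among them.

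The first question was how the pathway answered to hypoxia in each line, under each treatment. In WM35 without IGF1, 26 of 40 probes rose and 0 fell, while 15.4% of all kept probes were called, 7.65% as rises and 7.71% as falls. The 40 probes had a median change of 0.70, against -0.024 over all 16750 kept probes, and 19 of the 28 genes were higher by their brightest probe. In WM35 with IGF1, 21 of 40 probes rose and 0 fell, with 10.7% of all probes called, 5.93% higher and 4.79% lower, and the member median was 0.52 against -0.011. In Mel-624 siControl cells 32 of 42 probes rose and 1 fell, with 45% of all probes called, 21.5% higher and 23.4% lower, and the medians were 0.60 and 0.005. In Mel-624 siIGF1R cells 26 of 42 probes rose and 1 fell, with 44.5% called, 21.6% higher and 22.9% lower, and the medians were 0.47 and 0.016. The share of members that rose was thus above the share of all probes that rose in each of the 4 comparisons. Among the 39 probes kept in both lines, 17 probes of 14 genes rose in all 4 comparisons, 7 in 3, 4 in 2 and 4 in 1, 5 passed in none, and 2 passed only as a fall in 1. Calls were not counted jointly in this way over all probes, so these counts have no background share. Raw signal averaged over probes was 331 ± 12.3 (SD, n = 3) for untreated normoxic WM35 and 256 to 260 for the other WM35 groups. Its part in the WM35 changes without IGF1 was not tested, and the comparison with IGF1, between groups at 260 ± 10.4 and 256 ± 7.02, gave the 21 rises above. On bulk RNA, a change in every cell and a change in some of the cells cannot be told apart. On the leading axis of the spread within WM35 groups, 33.2% of that spread, normoxia control C, hypoxia control A, hypoxia IGF1 C and normoxia IGF1 B stood apart from their groups. Without the first 2 of them together, 25 probes rose without IGF1, and 23 rose and 1 fell with IGF1. Without hypoxia IGF1 C, 19 rose and 1 fell with IGF1, and without normoxia IGF1 B 21 rose and 0 fell. The plot of hypoxia changes by probe gives every kept member. Where 4 hypoxia changes of a gene follow one another below, they are for WM35 without IGF1, WM35 with IGF1, siControl cells and siIGF1R cells, in that order.

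**Figure D1:**
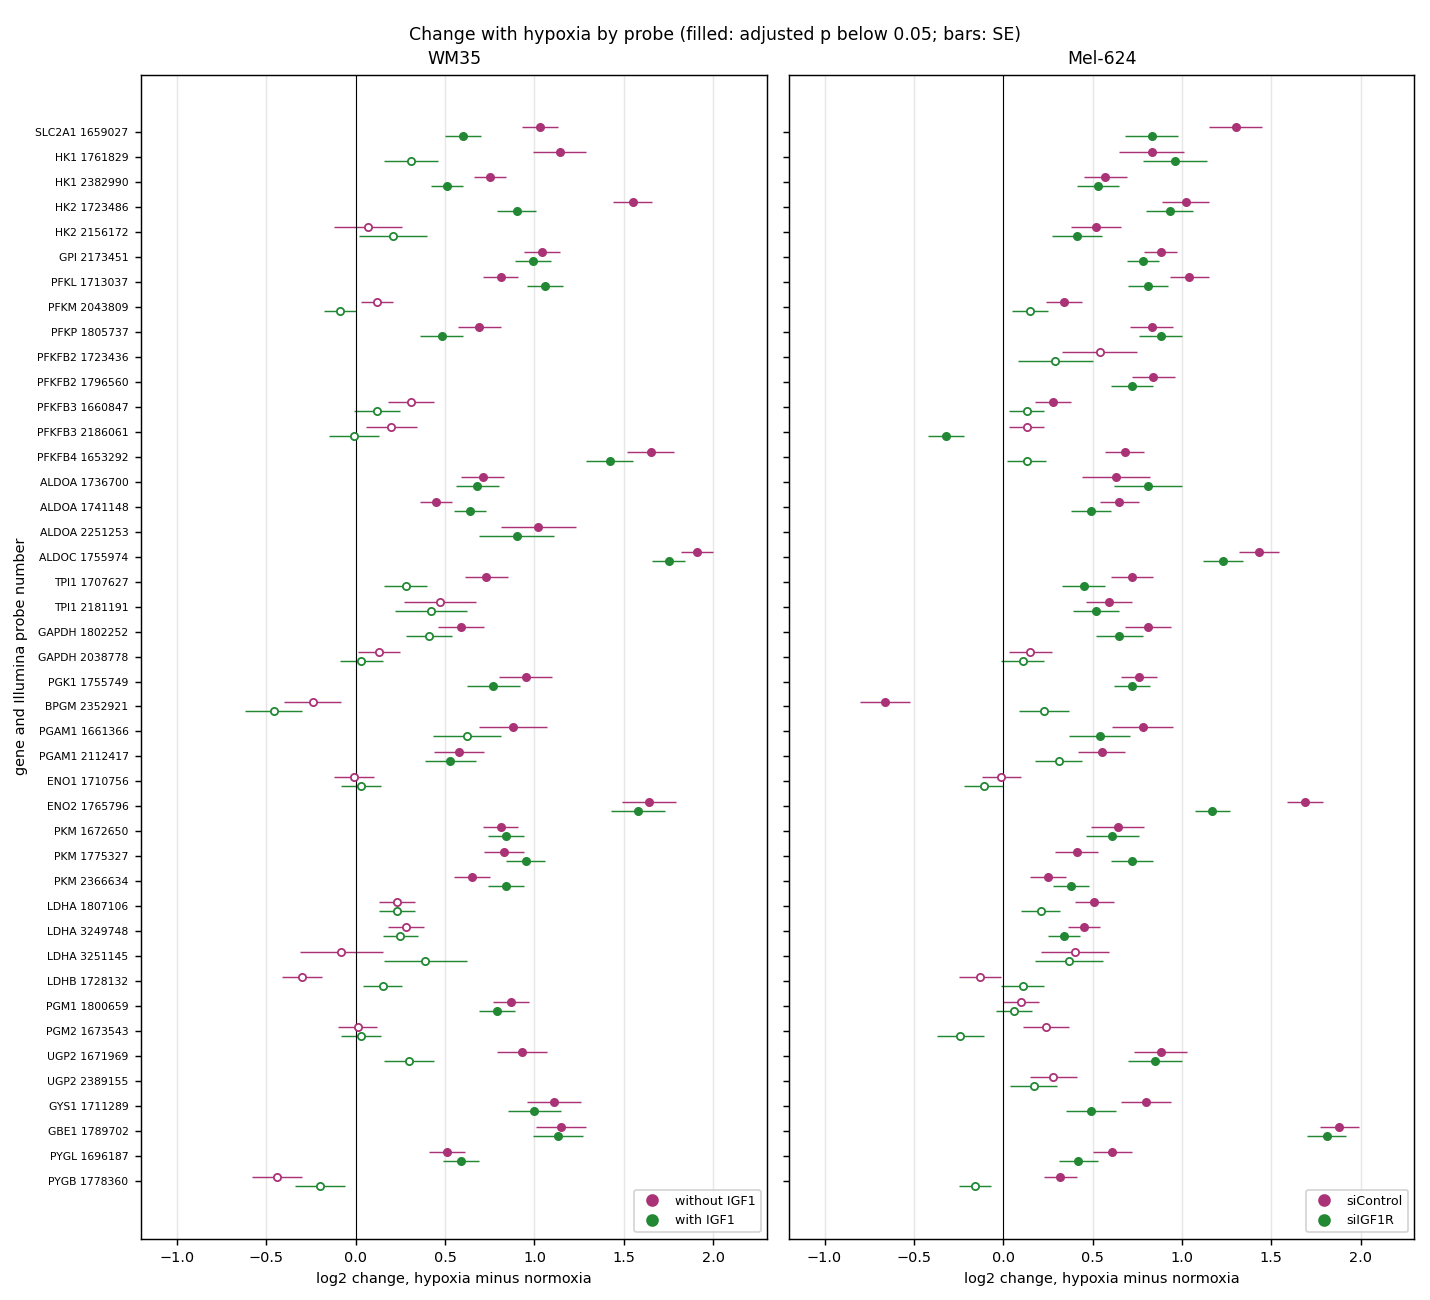
Change with hypoxia for every kept member probe, in WM35 without and with IGF1 (left) and in Mel-624 siControl and siIGF1R cells (right). Points are log2 changes, bars are SE, filled points have an adjusted p below 0.05, and the largest rise is 1.91 for ALDOC in WM35.

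At the entry of the pathway, the transporter SLC2A1 (GLUT1, the main glucose carrier of many tumour cells) rose with hypoxia in both lines and under both treatments. In WM35 its levels were 10.37, 10.60 and 10.53 in normoxia, 11.08, 10.87 and 10.81 in normoxia with IGF1, 11.45, 11.54 and 11.59 in hypoxia, and 11.55, 11.48 and 11.53 in hypoxia with IGF1. Each hypoxic WM35 array lay above each normoxic one, and the untreated normoxic arrays were the lowest. In Mel-624 they were 12.22, 11.59 and 11.70 in normoxic siControl cells, 12.44, 12.41 and 12.44 in normoxic siIGF1R cells, 13.17, 13.04 and 13.20 in hypoxic siControl cells, and 13.17, 13.15 and 13.46 in hypoxic siIGF1R cells. There too each hypoxic array lay above each normoxic one, and 1 normoxic siControl array, A, stood closer to the siIGF1R arrays than B and C did. The hypoxia change was 1.03 ± 0.10 (adjusted p = 4.3e-05) in WM35 without IGF1, 0.60 ± 0.10 (adjusted p = 0.0028) with IGF1, 1.30 ± 0.15 (adjusted p = 1.8e-05) in siControl cells and 0.83 ± 0.15 (adjusted p = 0.00062) in siIGF1R cells. HK2, the inducible hexokinase of many tumours, was read by 2 probes. By the brighter one its WM35 levels were 8.83, 8.86 and 8.90 in normoxia, 9.48, 9.71 and 9.75 in normoxia with IGF1, 10.45, 10.43 and 10.37 in hypoxia, and 10.36, 10.67 and 10.61 in hypoxia with IGF1. Its normoxic untreated arrays were lowest, its normoxic IGF1 arrays lay in between, and both hypoxic groups lay above all normoxic arrays. In Mel-624 the same probe read 9.43, 9.13 and 9.12 in normoxic siControl cells, 9.33, 9.12 and 8.92 in normoxic siIGF1R cells, 10.12, 10.24 and 10.38 in hypoxic siControl cells, and 9.95, 10.17 and 10.02 in hypoxic siIGF1R cells. The hypoxic arrays did not overlap the normoxic ones, and the treatments overlapped in normoxia. The rise was 1.55 ± 0.11 (adjusted p = 1.9e-06) in WM35 without IGF1, 0.90 ± 0.11 (adjusted p = 0.00024) with IGF1, 1.02 ± 0.13 (adjusted p = 4.4e-05) in siControl cells and 0.93 ± 0.13 (adjusted p = 9.5e-05) in siIGF1R cells. The dimmer HK2 probe ILMN_2156172 disagreed in WM35, where it gave 0.07 ± 0.19 (95% interval -0.35 to 0.49) and 0.21 ± 0.19, and was not called. In Mel-624 that probe rose by 0.52 ± 0.14 and 0.41 ± 0.14. The latter call was lost on leaving out siIGF1R hypoxia array A, B or C (adjusted p 0.052, 0.072 and 0.052) or normoxia array A or C (0.11 and 0.074). HK1, the hexokinase present in most tissues, rose by 0.75 ± 0.09, 0.51 ± 0.09, 0.57 ± 0.12 and 0.53 ± 0.12, and was called in all 4. Its dimmer probe, ILMN_1761829, was called in all but WM35 with IGF1, where it gave 0.31 ± 0.15 (adjusted p = 0.22). GPI, which turns glucose 6-phosphate into fructose 6-phosphate, rose by 1.04 ± 0.10, 0.99 ± 0.10, 0.88 ± 0.09 and 0.78 ± 0.09, also called in all 4.

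**Figure D2:**
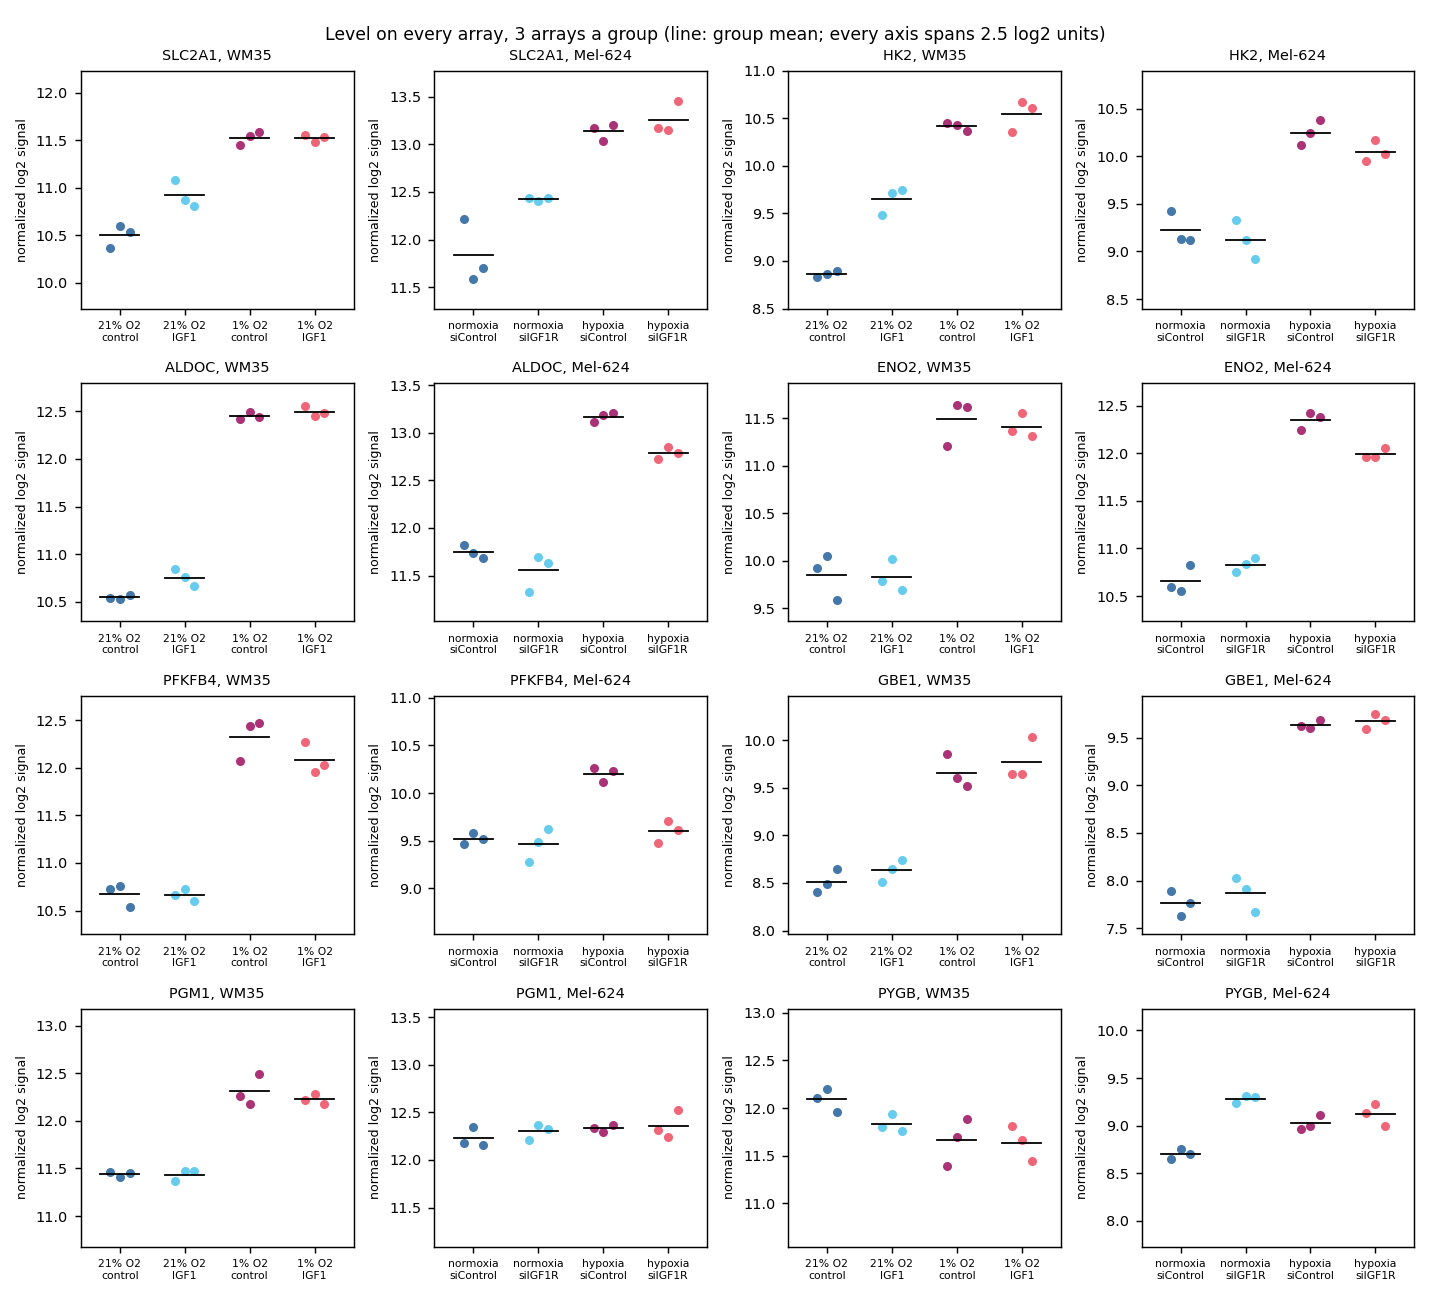
Normalized log2 level of 8 members on each of the 24 arrays, by the brightest kept probe of the line, with lines for group means and the same 2.5-unit span on every axis. ALDOC and ENO2 show no overlap between oxygen levels in either line, PGM1 rises in WM35 while its Mel-624 groups overlap, and the hypoxic siControl arrays of Mel-624 lie above the other 9 for PFKFB4.

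Of the 3 phosphofructokinase genes, the liver form PFKL and the platelet form PFKP rose in all 4 comparisons. The muscle form PFKM passed the test only in siControl cells. PFKL levels in WM35 were 7.69, 7.82 and 7.57 in normoxia, 7.41, 7.50 and 7.55 in normoxia with IGF1, 8.51, 8.48 and 8.54 in hypoxia, and 8.68, 8.55 and 8.42 in hypoxia with IGF1, without overlap between oxygen levels. The PFKL change was 0.81 ± 0.10 (adjusted p = 0.00025) without IGF1 and 1.06 ± 0.10 (adjusted p = 3.9e-05) with it, then 1.04 ± 0.11 (adjusted p = 1.1e-05) in siControl and 0.81 ± 0.11 (adjusted p = 8.2e-05) in siIGF1R cells. PFKP changed by 0.69 ± 0.12, 0.48 ± 0.12, 0.83 ± 0.12 and 0.88 ± 0.12. Its call in WM35 with IGF1 was lost without hypoxia array A or B (adjusted p 0.063 and 0.071) or normoxia array A or C (0.062 and 0.056). PFKM gave 0.12 ± 0.09 and -0.09 ± 0.09 in WM35, with 95% intervals of -0.08 to 0.32 and -0.29 to 0.11. In Mel-624 it gave 0.34 ± 0.10 (adjusted p = 0.014) in siControl cells and 0.15 ± 0.10 (adjusted p = 0.23) in siIGF1R cells, and the former call was lost without hypoxia siControl array A or C (adjusted p 0.050 and 0.053).

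The PFKFB enzymes make fructose 2,6-bisphosphate, the activator of phosphofructokinase, and also remove it. PFKFB4 differed most between the lines. In WM35 its levels were 10.73, 10.76 and 10.54 in normoxia, 10.66, 10.73 and 10.60 in normoxia with IGF1, 12.07, 12.44 and 12.47 in hypoxia, and 12.27, 11.96 and 12.03 in hypoxia with IGF1. The 2 oxygen levels were far apart and the IGF1 and control arrays overlapped. In Mel-624 they were 9.46, 9.58 and 9.52 in normoxic siControl cells, 9.28, 9.49 and 9.62 in normoxic siIGF1R cells, 10.26, 10.12 and 10.23 in hypoxic siControl cells, and 9.47, 9.71 and 9.61 in hypoxic siIGF1R cells. There the hypoxic siControl arrays stood above all 9 others, while hypoxic siIGF1R arrays overlapped the normoxic ones. PFKFB4 rose by 1.65 ± 0.13 (adjusted p = 5e-06) without IGF1 and 1.42 ± 0.13 (adjusted p = 2.3e-05) with IGF1 in WM35, by 0.68 ± 0.11 (adjusted p = 0.00024) in siControl cells, and gave 0.13 ± 0.11 (adjusted p = 0.35) in siIGF1R cells. PFKFB3, known as the hypoxia-inducible form with high kinase activity, gave 0.20 ± 0.14 and -0.01 ± 0.14 in WM35 by its brighter probe, ILMN_2186061, and neither was called. In Mel-624 the same probe gave 0.13 ± 0.10 (adjusted p = 0.33) in siControl cells and -0.32 ± 0.10 (adjusted p = 0.017) in siIGF1R cells, a fall whose call was lost without hypoxia siIGF1R array A or B (adjusted p 0.063 and 0.059) or normoxia array B (0.068). Its dimmer probe ILMN_1660847 rose by 0.28 ± 0.10 in siControl cells, and leaving out hypoxia array B or C or normoxia array A or C raised the adjusted p to 0.13, 0.079, 0.12 and 0.097. PFKFB2, the heart form, was kept in Mel-624 only. Its probe ILMN_1796560 rose by 0.84 ± 0.12 (adjusted p = 0.00011) in siControl cells and by 0.72 ± 0.12 (adjusted p = 0.00037) in siIGF1R cells. The other kept PFKFB2 probe, ILMN_1723436, was called in neither.

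In the middle of the pathway the aldolases split fructose 1,6-bisphosphate, and ALDOC, known as the brain form, had the highest mean hypoxia change of all members. Its WM35 levels were 10.54, 10.53 and 10.57 in normoxia, 10.84, 10.76 and 10.66 in normoxia with IGF1, 12.42, 12.49 and 12.44 in hypoxia, and 12.56, 12.45 and 12.48 in hypoxia with IGF1. Every hypoxic array was at least 12.42 and every normoxic one at most 10.84. In Mel-624 its levels were 11.82, 11.74 and 11.68 in normoxic siControl cells, 11.33, 11.70 and 11.63 in normoxic siIGF1R cells, 13.11, 13.19 and 13.21 in hypoxic siControl cells, and 12.72, 12.85 and 12.79 in hypoxic siIGF1R cells. All 3 hypoxic siIGF1R arrays lay between the normoxic arrays and the hypoxic siControl arrays. ALDOC rose by 1.91 ± 0.09 (adjusted p = 5.5e-08) and 1.75 ± 0.09 (adjusted p = 1.4e-07) in WM35 without and with IGF1, a factor of 3.75 and 3.35. In Mel-624 it rose by 1.43 ± 0.11 (adjusted p = 6.6e-07) in siControl and 1.23 ± 0.11 (adjusted p = 2.4e-06) in siIGF1R cells. ALDOA, the form of most tissues, rose less by its brightest probe, ILMN_1741148, by 0.45 ± 0.09, 0.64 ± 0.09, 0.65 ± 0.11 and 0.49 ± 0.11, all called. The ALDOA probe ILMN_1736700 was also called in all 4, and its call in siControl cells was lost in 2 of 19 settings. A further probe, ILMN_2251253, was detected on 3 arrays of each hypoxic WM35 group. In normoxia it was detected on 1 array without IGF1 and on 0 with it. It was thus kept only through its hypoxic groups and had to differ, so its calls as rises in WM35 add no support. It was at least 1.41-fold higher in hypoxia with IGF1. That call was lost without hypoxia IGF1 array A or C (adjusted p 0.060 and 0.053) or normoxia IGF1 array B (0.056). TPI1, which interconverts the triose phosphates, gave 0.73 ± 0.12 in WM35 without IGF1, 0.28 ± 0.12 with it, where it was not called, and rose by 0.72 ± 0.12 and 0.45 ± 0.12 in Mel-624. Its dimmer probe, ILMN_2181191, was called in both Mel-624 comparisons but not in WM35 without IGF1 (0.47 ± 0.20, adjusted p = 0.13) or with it.

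GAPDH, often used as a reference gene, depended on the probe. Its brighter probe, ILMN_2038778, gave 0.13 ± 0.12, 0.03 ± 0.12, 0.15 ± 0.12 and 0.11 ± 0.12 and was called in none. The dimmer probe, ILMN_1802252, gave 0.59 ± 0.13, 0.41 ± 0.13, 0.81 ± 0.13 and 0.65 ± 0.13, called in all but WM35 with IGF1, and in WM35 without IGF1 the call was lost without the 2 arrays that stood apart (adjusted p = 0.064). GAPDH has many near-identical copies in the genome, as have TPI1, PGAM1 and LDHA, and the probe sequences were not used here, so what each probe of these genes reads is uncertain. The brighter GAPDH probe had a mean raw signal of 17900 to 20100 in the WM35 groups, against a highest signal of 29600 for any probe. The part of this high signal was not tested. PGK1, the first ATP-yielding step, has 1 probe and rose in all 4 comparisons. Its levels in WM35 were 11.99, 12.17 and 12.12 in normoxia, 12.40, 11.88 and 12.50 in normoxia with IGF1, 12.96, 12.97 and 13.20 in hypoxia, and 12.90, 13.05 and 13.12 in hypoxia with IGF1, with no overlap between oxygen levels. Its changes were 0.95 ± 0.15 (adjusted p = 0.0013), 0.77 ± 0.15 (adjusted p = 0.0063), 0.76 ± 0.10 (adjusted p = 4.3e-05) and 0.72 ± 0.10 (adjusted p = 7.3e-05). BPGM, which draws off 1,3-bisphosphoglycerate to 2,3-bisphosphoglycerate, was the only member gene to pass as a fall in siControl cells. BPGM in Mel-624 read 7.24, 7.15 and 7.17 in normoxic siControl cells, 6.98, 6.55 and 6.50 in normoxic siIGF1R cells, 6.57, 6.56 and 6.44 in hypoxic siControl cells, and 7.13, 6.75 and 6.84 in hypoxic siIGF1R cells. The normoxic siControl arrays were the highest group. Its hypoxia change was -0.66 ± 0.14 (adjusted p = 0.0016) in siControl cells and 0.23 ± 0.14 (adjusted p = 0.19) in siIGF1R cells, and in WM35 it was -0.24 ± 0.16 and -0.46 ± 0.16, not called. PGAM1, the phosphoglycerate mutase of most tissues, gave 0.58 ± 0.14, 0.53 ± 0.14, 0.55 ± 0.13 and 0.31 ± 0.13 by its brighter probe, ILMN_2112417, and was called in all but siIGF1R cells. In WM35 its call without IGF1 was lost without hypoxia control array A (adjusted p 0.061) or normoxia control array A or B (0.073 and 0.057), and its call with IGF1 without any 1 of the 6 arrays compared (0.054 to 0.11). The dimmer PGAM1 probe, ILMN_1661366, was called in all but WM35 with IGF1, where it gave 0.62 ± 0.19 (adjusted p = 0.061).

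The enolases parted. ENO2, the enolase of neurons and neuroendocrine cells, rose strongly, and ENO1, the enolase of most tissues, passed in no comparison. The ENO2 levels in WM35 were 9.92, 10.05 and 9.59 in normoxia, 9.79, 10.02 and 9.69 in normoxia with IGF1, 11.21, 11.64 and 11.62 in hypoxia, and 11.36, 11.55 and 11.31 in hypoxia with IGF1. In Mel-624 they were 10.59, 10.55 and 10.83 in normoxic siControl cells, 10.75, 10.84 and 10.90 in normoxic siIGF1R cells, 12.24, 12.42 and 12.38 in hypoxic siControl cells, and 11.96, 11.96 and 12.06 in hypoxic siIGF1R cells. No hypoxic array overlapped a normoxic one in either line, and hypoxic siIGF1R arrays lay below hypoxic siControl arrays. ENO2 rose by 1.64 ± 0.15 (adjusted p = 2.6e-05), 1.58 ± 0.15 (adjusted p = 4.2e-05), 1.69 ± 0.10 (adjusted p = 1.4e-07) and 1.17 ± 0.10 (adjusted p = 2.6e-06). In WM35, ENO1 read 14.30, 14.37 and 14.13 in normoxia, 14.47, 14.14 and 14.24 in normoxia with IGF1, 14.16, 14.27 and 14.34 in hypoxia, and 14.38, 14.22 and 14.33 in hypoxia with IGF1. Its groups overlapped there and in Mel-624. Its changes were -0.01 ± 0.11 (-0.25 to 0.23), 0.03 ± 0.11 (-0.22 to 0.27), -0.01 ± 0.11 (-0.24 to 0.22) and -0.11 ± 0.11 (-0.34 to 0.12), with 95% intervals in brackets. Its probe was the 20th brightest probe of the array by mean signal in WM35 and the 42nd in Mel-624, and the part of this high signal in the result was not tested.

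At the end of the pathway, PKM (pyruvate kinase of muscle and tumour cells) rose by all 3 of its probes in all 4 comparisons, and which splice form each probe reads was not determined. The brightest, ILMN_2366634, gave 0.65 ± 0.10, 0.84 ± 0.10, 0.25 ± 0.10 and 0.38 ± 0.10. The call of this probe in siControl cells, at an adjusted p of 0.046, was lost without hypoxia siControl array A, B or C (0.11, 0.12 and 0.064), normoxia siControl array A or C (0.14 and 0.10), hypoxia siIGF1R array A or B (0.052 and 0.050), or normoxia siIGF1R array B or C (0.059 and 0.051). The probes ILMN_1672650 and ILMN_1775327 gave 0.64 ± 0.15 and 0.41 ± 0.12 there, and the latter call was lost without normoxia siControl array C (0.058). LDHA, the lactate dehydrogenase form that favours lactate formation, gave 0.28 ± 0.10 (adjusted p = 0.074) and 0.25 ± 0.10 (adjusted p = 0.13) in WM35 by its brightest probe, ILMN_3249748, neither called. In Mel-624 it rose by 0.45 ± 0.09 (adjusted p = 0.0012) and 0.34 ± 0.09 (adjusted p = 0.008). This probe had a mean raw signal of 14600 to 17600 in the WM35 groups, and the part of this high signal was not tested. The LDHA probe ILMN_1807106 was called in siControl cells only, and ILMN_3251145 in none. LDHB, the form of heart and oxidative tissue, was called in none, at -0.30 ± 0.11, 0.15 ± 0.11, -0.13 ± 0.12 and 0.11 ± 0.12.

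Of the genes of glycogen synthesis, GBE1 and GYS1 rose in all 4 comparisons and UGP2 in 3. In WM35, GBE1, the branching enzyme, read 8.40, 8.49 and 8.65 in normoxia, 8.51, 8.65 and 8.74 in normoxia with IGF1, 9.86, 9.60 and 9.52 in hypoxia, and 9.64, 9.64 and 10.03 in hypoxia with IGF1. In Mel-624 it read 7.89, 7.63 and 7.76 in normoxic siControl cells, 8.03, 7.91 and 7.67 in normoxic siIGF1R cells, 9.62, 9.60 and 9.69 in hypoxic siControl cells, and 9.59, 9.75 and 9.69 in hypoxic siIGF1R cells. Hypoxic and normoxic arrays were fully apart in both lines, and IGF1 and siIGF1R arrays overlapped their controls at each oxygen level. GBE1 rose by 1.15 ± 0.14 (adjusted p = 0.00016), 1.13 ± 0.14 (adjusted p = 0.00022), 1.88 ± 0.11 (adjusted p = 1.3e-07) and 1.81 ± 0.11 (adjusted p = 2e-07). In Mel-624, GYS1, the glycogen synthase outside the liver, read 6.54, 6.78 and 6.76 in normoxic siControl cells, 6.37, 6.49 and 6.78 in normoxic siIGF1R cells, 7.63, 7.60 and 7.24 in hypoxic siControl cells, and 7.11, 7.09 and 6.91 in hypoxic siIGF1R cells. Its hypoxic siIGF1R arrays lay between the normoxic and the hypoxic siControl arrays. GYS1 rose by 1.11 ± 0.15 (adjusted p = 0.00037), 1.00 ± 0.15 (adjusted p = 0.001), 0.80 ± 0.14 (adjusted p = 0.00045) and 0.49 ± 0.14 (adjusted p = 0.011). UGP2, which makes UDP-glucose, rose by 0.93 ± 0.14 in WM35 without IGF1, gave 0.30 ± 0.14 (adjusted p = 0.22) with it, and rose by 0.88 ± 0.15 and 0.85 ± 0.15 in Mel-624. A dimmer UGP2 probe, ILMN_2389155, was kept in Mel-624 only and was called in neither hypoxia comparison there.

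PGM1, the main phosphoglucomutase, rose in WM35 and was not called in Mel-624. In WM35 it read 11.46, 11.41 and 11.45 in normoxia, 11.37, 11.47 and 11.47 in normoxia with IGF1, 12.26, 12.18 and 12.49 in hypoxia, and 12.22, 12.28 and 12.18 in hypoxia with IGF1. In Mel-624 it read 12.18, 12.35 and 12.16 in normoxic siControl cells, 12.21, 12.37 and 12.32 in normoxic siIGF1R cells, 12.34, 12.29 and 12.37 in hypoxic siControl cells, and 12.31, 12.24 and 12.52 in hypoxic siIGF1R cells. The WM35 oxygen levels were apart, and the 4 Mel-624 groups overlapped. Its changes were 0.87 ± 0.10 (adjusted p = 0.00012) and 0.79 ± 0.10 (adjusted p = 0.00031) in WM35, then 0.10 ± 0.10 (-0.12 to 0.33) and 0.06 ± 0.10 (-0.16 to 0.28) in Mel-624, with 95% intervals in brackets. PGM2, the second phosphoglucomutase gene, gave 0.01 ± 0.11, 0.03 ± 0.11, 0.24 ± 0.13 and -0.24 ± 0.13 and was called in none. Of the phosphorylases, the liver form PYGL rose in all 4 comparisons, by 0.51 ± 0.10, 0.59 ± 0.10, 0.61 ± 0.11 and 0.42 ± 0.11. In WM35, the brain form PYGB read 12.11, 12.20 and 11.96 in normoxia, 11.80, 11.94 and 11.76 in normoxia with IGF1, 11.39, 11.70 and 11.89 in hypoxia, and 11.81, 11.66 and 11.44 in hypoxia with IGF1. In Mel-624 it read 8.65, 8.76 and 8.70 in normoxic siControl cells, 9.24, 9.31 and 9.30 in normoxic siIGF1R cells, 8.97, 9.0 and 9.11 in hypoxic siControl cells, and 9.13, 9.23 and 9.0 in hypoxic siIGF1R cells. In WM35 the hypoxic control arrays lay below the normoxic control arrays, and in Mel-624 the normoxic siControl arrays were the lowest group. PYGB changed by -0.44 ± 0.14 (adjusted p = 0.054) and -0.20 ± 0.14 (adjusted p = 0.42) in WM35, neither called. In Mel-624 it rose by 0.32 ± 0.09 (adjusted p = 0.012) in siControl cells, a call lost without hypoxia siControl array C (adjusted p 0.055), and gave -0.16 ± 0.09 (adjusted p = 0.18) in siIGF1R cells.

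Whether isoforms of 1 step answered alike was tested by the difference of their hypoxia changes, averaged over both treatments, with an exact two-sided permutation test that shuffled oxygen labels within treatment. The 2 lines gave 22 pairs, p-values were adjusted over them, and the smallest p the design allows is 0.005. In WM35 10 of 10 pairs differed and in Mel-624 10 of 12. The test was not run on other probe pairs, so these counts have no background share. Some pairs also share a gene. Enolase had the widest gap, with ENO2 above ENO1 by 1.60 in WM35 and 1.49 in Mel-624 (adjusted p = 0.0073 in both). PFKFB4 exceeded PFKFB3 by 1.44 and 0.51, and ALDOC exceeded ALDOA by 1.28 and 0.76 (each adjusted p = 0.0073). Both PFKL and PFKP exceeded PFKM, by 0.92 and 0.57 in WM35 and by 0.68 and 0.61 in Mel-624. PFKL exceeded PFKP by 0.35 in WM35 (adjusted p = 0.024), and in Mel-624 PFKP minus PFKL was -0.07 (adjusted p = 0.53). PGM1 exceeded PGM2 by 0.81 in WM35, whereas the Mel-624 difference of 0.08 had an adjusted p of 0.50. PYGL exceeded PYGB by 0.86 and 0.43. In Mel-624 PFKFB2 exceeded PFKFB3 by 0.88 and PFKFB4 by 0.38, the latter not called with the mean of a gene's probes (adjusted p = 0.10). LDHA exceeded LDHB by 0.34 in WM35 (adjusted p = 0.028) and 0.40 in Mel-624 (0.0073). The WM35 call was lost without hypoxia control array A, B or C (0.050, 0.055 and 0.050) or normoxia IGF1 array A (0.061). HK2 exceeded HK1 by 0.59 in WM35 (adjusted p = 0.013) and by 0.42 in Mel-624 (0.028), but the pair rests on the brighter HK2 probe. With the mean of each gene's probes the difference was 0.01 in WM35 (adjusted p = 0.97) and rounded to 0 in Mel-624. The Mel-624 call was also lost without hypoxia siIGF1R array B (0.061) or normoxia siIGF1R array C (0.055).

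**Figure D3:**
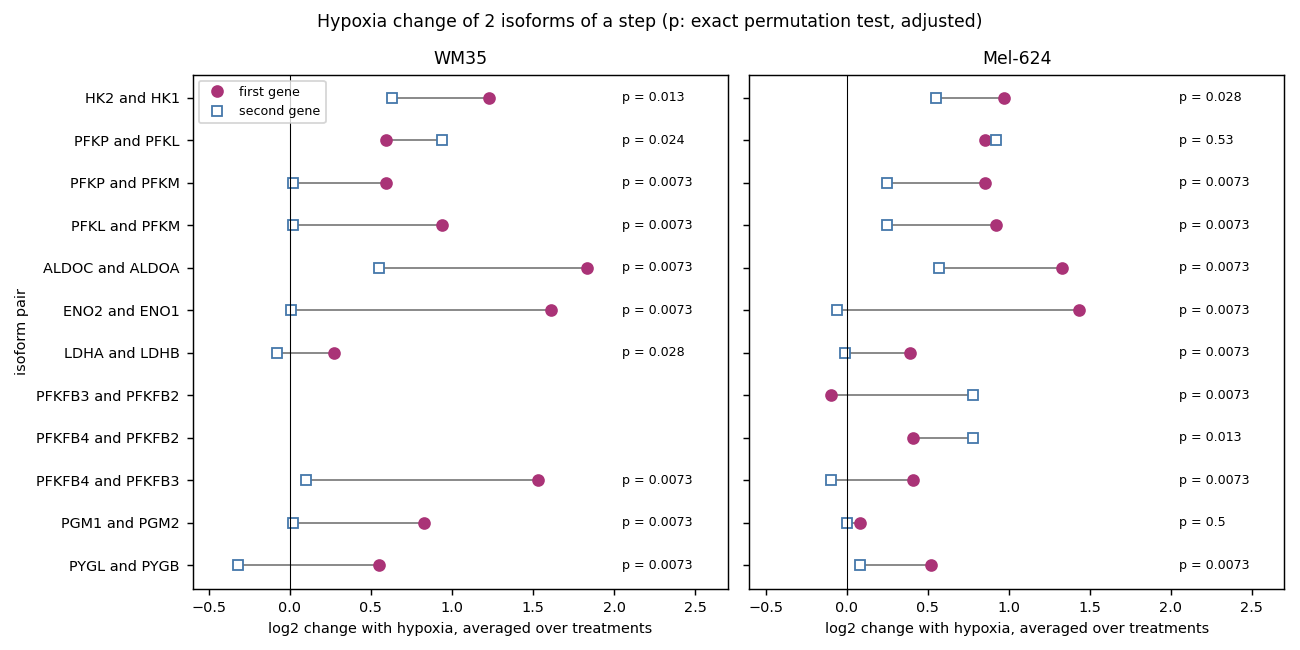
Hypoxia change of both genes of each isoform pair, averaged over treatments, in WM35 (left, 10 pairs) and Mel-624 (right, 12 pairs). Filled circles are the first gene and open squares the second, on a log2 scale, with the adjusted p of the exact permutation test beside each pair. ENO2 and ENO1 lie farthest apart in both lines.

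The hypoxia answers of untreated WM35 and siControl Mel-624 cells were compared in 1 fit of all 24 arrays. Exposure differed, at 24 h and 3 days, and so did chip and transfection, and these cannot be told apart from the line. Of 39 probes kept in both lines, 2 differed as higher in Mel-624 and 6 as lower, while over all 14266 such probes 12.7% were higher and 16.2% lower. The share of members, 20.5%, was below the 28.9% of all probes. GBE1 rose more in Mel-624, by 0.70 ± 0.17 (adjusted p = 0.0041). PYGB differed by 0.76 ± 0.17 (adjusted p = 0.0015), with a rise in Mel-624 and a lower value in WM35. The change was lower in Mel-624 than in WM35 for PFKFB4 (-1.03 ± 0.16, adjusted p = 6.6e-05), PGM1 (-0.79 ± 0.13, adjusted p = 0.00013), ALDOC (-0.56 ± 0.12, adjusted p = 0.0018), HK2 (-0.55 ± 0.16, adjusted p = 0.014) and 2 probes of PKM, and PGM1 was not called as a rise in Mel-624. The HK2 value is for its brighter probe. The dimmer HK2 probe, ILMN_2156172, pointed the other way by the changes given above, and was not called for the difference.

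The next question was what IGF1 adds in WM35 at each oxygen level. In normoxia 1 of 40 member probes rose and 0 fell, against 0.227% and 0.37% of all probes and 0.597% in either direction, and 10 member probes, 25%, had an unadjusted p below 0.05, against 16.3% of all probes. The probe that passed was the brighter HK2 probe, with levels of 8.83, 8.86 and 8.90 without and 9.48, 9.71 and 9.75 with IGF1. The 2 groups did not overlap. Its change was 0.78 ± 0.11 (adjusted p = 0.0095), a factor of 1.72. The call was lost without normoxia IGF1 array C (adjusted p 0.064) or normoxia control array A or B (0.056 and 0.051), and with only the arrays compared (0.079), while without normoxia IGF1 array B, which stood apart, 1 member probe was called. Mean raw signal also differed between these groups, at 331 ± 12.3 and 260 ± 10.4 (SD, n = 3), and its part was not tested. The dimmer HK2 probe, ILMN_2156172, gave 0.00 ± 0.19. SLC2A1 gave 0.42 ± 0.10 (adjusted p = 0.086), with its 3 IGF1 arrays above its 3 control arrays, and the HK1 probe ILMN_1761829 gave 0.68 ± 0.15 (adjusted p = 0.064); neither was called. With IGF1 in hypoxia 0 of 40 member probes were called with limma, against 5.06% of all probes, 2.57% higher and 2.5% lower, and 1 member probe, 2.5%, had an unadjusted p below 0.05, against 20.4% of all probes. The changes ran from -0.38 to 0.27, and HK2 gave 0.13 ± 0.11 (95% interval -0.11 to 0.36) and SLC2A1 -0.01 ± 0.10 (-0.23 to 0.21). Averaged over both oxygen levels 1 probe rose, HK2 by 0.45 ± 0.08 (adjusted p = 0.0046), against 10.5% of all probes called, 5.18% higher and 5.28% lower. HK2 minus HK1 differed by 0.41 under IGF1 (exact permutation test, adjusted p = 0.044) and PGM1 minus PGM2 by -0.30 (adjusted p = 0.047). HK2 minus HK1 was lost with the mean of probes (0.41), and without hypoxia IGF1 array B or C (0.063 and 0.079), hypoxia control array C (0.055) or normoxia control array A, B or C (0.073, 0.055 and 0.055). PGM1 minus PGM2 was lost, at adjusted p 0.055 to 0.11, without normoxia control array A, B or C, normoxia IGF1 A or C, hypoxia control A or C, or hypoxia IGF1 A or C, and without 7 single Mel-624 arrays, over which the adjustment also runs.

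**Figure D4:**
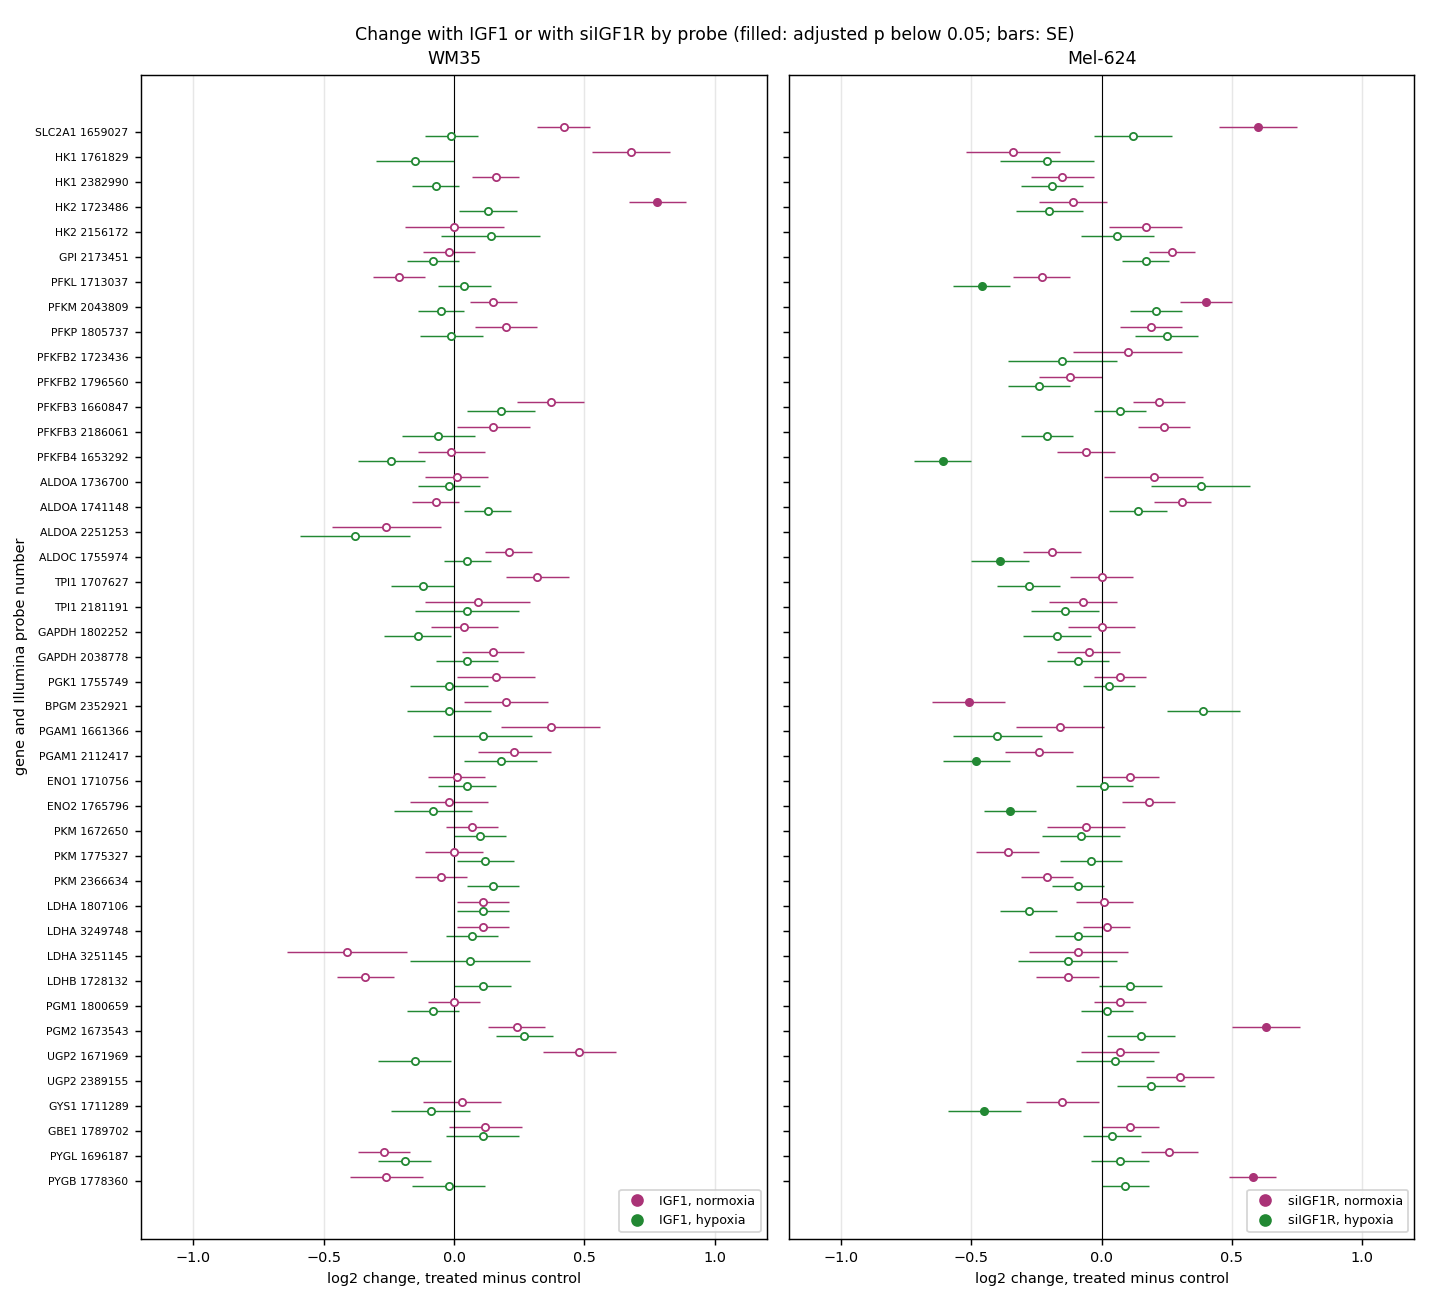
Change with IGF1 in WM35 (left) and with siIGF1R in Mel-624 (right) for every kept member probe, in normoxia and in hypoxia. Points are log2 changes, bars are SE, and filled points have an adjusted p below 0.05. In WM35 the filled point is HK2 in normoxia (0.78), and in Mel-624 the 6 filled hypoxic points all lie below 0.

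Silencing IGF1R in Mel-624 moved few members at either oxygen level. In normoxia 4 of 42 probes rose and 1 fell, a share of 11.9% against 11.4% of all probes called, with 5.89% higher and 5.53% lower. The share was near the background. PGM2 read 6.96, 7.20 and 7.44 in siControl and 7.82, 7.83 and 7.83 in siIGF1R cells, a rise of 0.63 ± 0.13 (adjusted p = 0.0094). PYGB, whose arrays are given above, rose by 0.58 ± 0.09 (adjusted p = 0.0025). Neither gene's groups overlapped, and neither call was lost when any 1 array was left out. SLC2A1 rose by 0.60 ± 0.15 (adjusted p = 0.023) and PFKM by 0.40 ± 0.10 (adjusted p = 0.023), while BPGM fell, at -0.51 ± 0.14 (adjusted p = 0.031). The SLC2A1 call was lost without normoxia siControl array B or C (0.076 and 0.075) or siIGF1R array A, B or C (0.057, 0.061 and 0.061). The PFKM call was lost without siControl array A or C (0.066 and 0.062) or siIGF1R array B or C (0.090 and 0.072). The BPGM call was lost without siControl array A, B or C (0.092, 0.061 and 0.067) or siIGF1R array B or C (0.11 in both).

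In hypoxia siIGF1R lowered 6 of 42 probes and raised 0, against 10.3% of all probes lower and 9.77% higher. The share of all members called, 14.3%, was below the 20.1% of all probes. The 6 that fell were PFKFB4, PGAM1, PFKL, GYS1, ALDOC and ENO2. Each of the 6 had risen with hypoxia in siControl cells, as had 32 of the 42 member probes in all. Both comparisons share the hypoxic siControl arrays. PFKFB4 changed by -0.61 ± 0.11 (adjusted p = 0.0021), 1.53-fold lower than in siControl cells, and its call was lost under no setting. PFKL levels were 9.42, 9.18 and 9.31 in siControl and 8.83, 8.91 and 8.80 in siIGF1R cells, a change of -0.46 ± 0.11 (adjusted p = 0.013), lost without hypoxia siControl array A (0.055). The groups did not overlap. PGAM1 (ILMN_2112417) changed by -0.48 ± 0.13 (adjusted p = 0.025) and GYS1 by -0.45 ± 0.14 (adjusted p = 0.035). ALDOC changed by -0.39 ± 0.11 (adjusted p = 0.024) and ENO2 by -0.35 ± 0.10 (adjusted p = 0.031). These 4 calls were each lost on leaving out single hypoxic arrays. PGAM1 was lost without siControl B or C (0.078 and 0.070) or siIGF1R A, B or C (0.054, 0.064 and 0.061). GYS1 was lost without siControl A or B (0.12 and 0.11) or siIGF1R A, B or C (0.055, 0.061 and 0.12). ALDOC was lost without siControl B or C (0.070 and 0.074) or siIGF1R A or C (0.066 and 0.061), and ENO2 without siControl B or C (0.11 and 0.090) or siIGF1R A, B or C (0.073, 0.081 and 0.052). SLC2A1, higher with siIGF1R in normoxia, gave 0.12 ± 0.15 (-0.20 to 0.44) in hypoxia and HK2 gave -0.20 ± 0.13 (-0.48 to 0.08), with 95% intervals in brackets.

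Averaged over both oxygen levels, 6 of 42 probes were higher and 5 lower in siIGF1R cells, against 14.5% and 14% of all probes and 28.5% in either direction. PYGB (0.34 ± 0.07), PGM2 (0.39 ± 0.09) and PFKM (0.31 ± 0.07) were higher, and PFKL (-0.34 ± 0.08), PFKFB4 (-0.33 ± 0.08) and ALDOC (-0.29 ± 0.08) were lower. Within a step, isoforms were set apart by siIGF1R in 5 of 12 pairs, again without a background share from other probe pairs. The exact permutation test gave PFKL minus PFKM of -0.65, PFKP minus PFKL of 0.56, ALDOC minus ALDOA of -0.51 and PFKFB4 minus PFKFB3 of -0.35, each with an adjusted p of 0.028. PGM1 minus PGM2 was -0.34 (adjusted p = 0.047), a call lost without any 1 of 17 arrays (0.055 to 0.16), among them siIGF1R normoxia A, B and C.

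Whether the treatment effect depended on oxygen was tested by the interaction, the effect in hypoxia minus that in normoxia. In WM35 0 of 40 member probes were called with limma, against 0.0597% of all probes, 0.0119% higher and 0.0478% lower, and 6 member probes, 15%, had an unadjusted p below 0.05, against 7.58% of all probes. The HK2 value was -0.65 ± 0.15 (adjusted p = 0.32) and the SLC2A1 value -0.43 ± 0.14 (adjusted p = 0.46). In Mel-624 0 of 42 were called, against 0.387% of all probes, 0.0859% higher and 0.301% lower, and 7, 16.7%, had an unadjusted p below 0.05, against 13.9% of all probes. BPGM gave 0.90 ± 0.19 (adjusted p = 0.066), PFKFB4 -0.55 ± 0.15 (adjusted p = 0.14), ENO2 -0.52 ± 0.14 (adjusted p = 0.14) and PYGB -0.48 ± 0.13 (adjusted p = 0.13). BPGM was called, with an interaction above 0, with 1 probe a gene (adjusted p = 0.049), with detection on all 12 arrays (0.031) and without normoxia siIGF1R array A (0.040), so its call depended on the filter and on that array. In WM35 0 members were called for the interaction under any alternative run.

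A wider list of 59 other genes of sugar metabolism was read beside the members. In WM35 it had 39 kept probes of 31 genes, of which 7 rose and 4 fell with hypoxia without IGF1, with a median of 0.12, and 8 rose and 2 fell with IGF1. Over all kept probes 7.65% rose and 7.71% fell without IGF1, and 5.93% and 4.79% with it. The muscle enolase ENO3 (ILMN_1678904) rose by 0.78 ± 0.17 (adjusted p = 0.0085) without and 0.77 ± 0.17 (adjusted p = 0.012) with IGF1, while its second probe (ILMN_2365383) gave 0.46 ± 0.21 (adjusted p = 0.17) and 0.44 ± 0.21 (adjusted p = 0.22), not called. The phosphoglycerate mutase gene PGAM4 (ILMN_1682953), a near copy of PGAM1, rose by 0.74 ± 0.16 (adjusted p = 0.0099) and 0.65 ± 0.16 (adjusted p = 0.023). The transporter SLC2A6 fell without IGF1, at -0.66 ± 0.14 (adjusted p = 0.0081), and was not called with it, at -0.40 ± 0.14 (adjusted p = 0.094). MPC1, a subunit of the mitochondrial pyruvate carrier, fell without IGF1 by 1 probe (ILMN_2226324), at -0.56 ± 0.12 (adjusted p = 0.0088), which gave 0.07 ± 0.12 (adjusted p = 0.77) with IGF1, and its second probe (ILMN_1666967) was called in neither, at -0.19 ± 0.22 (adjusted p = 0.62) and 0.03 ± 0.22 (adjusted p = 0.95). In Mel-624 the list had 43 kept probes of 34 genes, with 11 higher and 6 lower in siControl cells and 11 and 6 in siIGF1R cells. Over all kept probes 21.5% were higher and 23.4% lower in siControl cells, and 21.6% and 22.9% in siIGF1R cells. TIGAR, a phosphatase that removes fructose 2,6-bisphosphate, fell, at -1.77 ± 0.11 (adjusted p = 1.4e-07) and -1.25 ± 0.11 (adjusted p = 2.2e-06). SLC2A6 fell there as well, at -0.96 ± 0.12 (adjusted p = 4e-05) and -1.14 ± 0.12 (adjusted p = 1.1e-05). PPP1R3D also fell, at -1.03 ± 0.14 (adjusted p = 5.7e-05) and -0.55 ± 0.14 (adjusted p = 0.0055). PKLR rose by 1 probe (ILMN_1777031), by 1.13 ± 0.13 (adjusted p = 2.4e-05) and 0.76 ± 0.13 (adjusted p = 0.00057). Its second probe (ILMN_1725172) was called in neither, at -0.09 ± 0.19 and -0.18 ± 0.19. IGF1 moved 0 of the 39 probes in normoxia and 1 in hypoxia, against 0.597% and 5.06% of all kept probes. With siIGF1R 5 of 43 were higher and 5 lower in normoxia, against 5.89% and 5.53% of all. In hypoxia 5 were higher and 9 lower, against 9.77% and 10.3% of all. The list had a smaller share of rises with hypoxia than the members in all 4 comparisons, a description without a test.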

How the data were processed

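RNA of 24 samples was measured on Illumina BeadChips. Per the file headers, the main deposited table gives for each probe and array a mean intensity that is not normalized, with values below 0 after background subtraction, and a detection p-value. The submitters' processing notes name GenomeStudio. Their version of it was not stated. The other deposited table, of normalized intensity, served as an alternative, and how it was normalized is not stated. Gene symbols came from the platform annotation. Of 47231 probes 27007 had a gene symbol, 4 of them several, and 20224 had none here.

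Signals of each line were background-corrected, quantile normalized and converted to the log2 scale from the deposited intensity with neqc of limma 3.58.1 (offset 16, R 4.3.3), then fitted per probe with lmFit and eBayes as 4 group means. The fit between lines used all 24 arrays together. Figures were drawn with matplotlib 3.10.9. Scripts were tested on simulated data. The members, gene lists and tests were chosen with earlier results of these data known. All 32 members were named by rule with every probe. The number of arrays, 3 a group, limits the precision. Alternatives were the deposited normalized values, no detection filter, detection on all 12 arrays, no further background correction, 1 probe a gene, the mean of a gene's probes, only the arrays compared, a change of at least 1.5-fold, a block for the replicate letter, leaving out every array in turn, and 2 WM35 arrays left out together.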

Additional observations from a re-analysis of the deposited data

Results flagged for a closer look

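The hypoxia answer differed between the lines, by the test of the difference itself, for 8 member probes of 7 genes. That was 20.5% of the 39 member probes kept in both lines, below the 28.9% of all such probes. Values are the log2 change with hypoxia in Mel-624 siControl cells minus that in WM35 control cells. It was higher in Mel-624 for PYGB (ILMN_1778360), at 0.76, and for GBE1 (ILMN_1789702), at 0.70. It was lower in Mel-624 for PFKFB4 (ILMN_1653292), at -1.03, PGM1 (ILMN_1800659), at -0.79, ALDOC (ILMN_1755974), at -0.56, and HK2 (ILMN_1723486), at -0.55. The dimmer HK2 probe, ILMN_2156172, was not called for this difference, and rose in siControl cells but not in WM35 control cells. The PKM probes were also lower, ILMN_1775327 at -0.50 and ILMN_2366634 at -0.39. The call of the former was lost without Mel-624 hypoxia siControl C (adjusted p 0.051), normoxia siControl A or B (0.067 and 0.069), WM35 hypoxia control B (0.056) or normoxia control B (0.073). The call of the latter was lost without Mel-624 hypoxia siControl C (0.070), normoxia siControl B (0.083), WM35 hypoxia control B or C (0.077 and 0.058) or normoxia control C (0.076). Time in hypoxia, transfection and BeadChip differed with the line and cannot be told apart from it.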

How the results depend on the processing

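Of 139 calls of member probes, 82 passed in every setting, and over 2889 repeats 2688 kept direction and side of the threshold, 201 lost the call and 0 changed direction. Of 27 isoform pair calls, 20 passed in every setting. HK2 minus HK1 under hypoxia in Mel-624 came to 0 with the mean of a gene's probes, on the other side of 0 before rounding. A change of at least 1.5-fold left 16 calls for hypoxia in siIGF1R cells, 2 for siIGF1R in normoxia, 1 in hypoxia and 0 averaged, 0 for IGF1 averaged and 4 between lines. With 1 probe a gene there was 1 call for the siIGF1R interaction and 3 for IGF1 averaged. Detection on all 12 arrays gave 1 and 4, and 3 for IGF1 in normoxia. No detection filter gave 3 for siIGF1R in normoxia. Only the arrays compared gave 2 for siIGF1R in normoxia and 0 for IGF1 in normoxia, where fewer arrays entered the fit. IGF1 averaged had 2 calls with the deposited normalized values and 3 without both WM35 arrays that stood apart. The mean of a gene's probes left 4 isoform pairs under treatment. Elsewhere the cause was not tested.

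Leaving out each array in turn gave 25 to 28 calls for hypoxia without IGF1 and 18 to 23 with it, 29 to 33 in siControl and 25 to 28 in siIGF1R cells. It gave 0 to 1 for IGF1 in normoxia, 0 in hypoxia, 1 to 2 averaged and 0 for its interaction. For siIGF1R it gave 2 to 5 in normoxia, 2 to 7 in hypoxia, 8 to 11 averaged and 0 to 1 for the interaction. Between lines it gave 6 to 10, and for isoform pairs 19 to 20 under hypoxia and 4 to 7 under treatment. With the replicate block there were 34 calls for hypoxia in siControl cells, 22 for hypoxia in WM35 with IGF1 and 7 for siIGF1R in hypoxia, and no count of calls moved by over 1.5 times. Deviations of same-letter arrays correlated between -0.291 and 0.424 in WM35 and between -0.052 and 0.185 in Mel-624, with 8 and 4 of 18 pairs over 0.1, so the letters were not taken as pairs. An array correlated best with its own letter in 14 of 36 cases in WM35 and 25 of 36 in Mel-624, the latter a hint from the data, not the design, of a shared factor. Undetected probes limit what low signal can show.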
